A study of Mus musculus with 4 samples.

Results

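The 9 genes described here carry the breakdown of tryptophan along the kynurenine route (Ido1, Ido2, Afmid, Kmo, Kynu and Haao) and the aryl hydrocarbon receptor with its feedback genes (Ahr, Ahrr and Tiparp). They were chosen by symbol, and each symbol matched 1 row of the deposited count table, 9 of 46078 gene rows in all. RNA came from dendritic cells (DCs) of mouse spleen and mesenteric lymph node, sorted by flow cytometry for CD45, CD11b, CD103 and MHCII and against CD64. Each mouse had been given EL4-Flt3 tumour cells 10 days earlier. The Ctrl group (genotype CD11c-cre, 2 libraries) carried the Cre transgene alone, and the Il33flx group (CD11c-cre-Il33flx/flx, 2 libraries) also carried floxed Il33 on both alleles, so that both groups shared the transgene and the tumour. The CD11c promoter is active in DCs and in some other myeloid cells, so Cre is not limited to the sorted type. Strain, sex, age and the number of animals behind a library are not given in the sources used here, and so p-values reflect differences among libraries of a group that could be technical.

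In the kynurenine route, the dioxygenases IDO1, IDO2 and TDO2 open the ring of tryptophan. The formamidase encoded by Afmid releases kynurenine, KMO hydroxylates it, kynureninase (Kynu) cuts off the side chain, and HAAO makes the precursor of quinolinic acid, from which NAD can be built. Kynurenine and other tryptophan products are ligands of AHR, a transcription factor that pairs with ARNT. AHR induces its own brakes, the repressor AHRR and the ADP-ribosyltransferase TIPARP. In DCs, IDO1 is known as an interferon-inducible enzyme of tolerogenic and mature cells, and type 1 DCs are a main site of its expression.

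Libraries held 67707682 to 81217828 counts in genes. Sort genes were present in all of them, with Ptprc (CD45) at 563 to 1012 CPM (counts scaled to a fixed library total, with TMM factors), Itgam (CD11b) at 97.8 to 128 CPM and Itgae (CD103) at 56.8 to 116 CPM. The excluded CD64 gene, Fcgr1, had 3.66 to 5.50 CPM. Type 1 DC markers (8 genes) summed to 9256 and 8067 CPM in Ctrl and to less, 7102 and 7612 CPM, in Il33flx. Irf8 and Wdfy4 made up most of these sums, at 4817 and 2847 CPM in Ctrl 1. Log2 fold changes were negative for 6 of the 8 and positive for Xcr1 (0.25) and Clec9a (0.11). Of the 8 genes, 3 were lower without overlap, where 14.9% of all genes tested were, and 0 were called (edgeR, DESeq2). Itgax, whose CD11c promoter drives the Cre, stood at 647 and 517 against 359 and 407 CPM (edgeR, unadjusted p = 0.0182, adjusted p = 0.995). The part of these differences in the values below was not tested. The targeted gene Il33 had 4 and 8 counts in Ctrl and 4 and 0 in Il33flx, too few to check the labels. Ctrl 1 stood apart from the other 3 libraries on the first principal component of log2 CPM, at -70.1 against 18.8 to 26.2 (49.97% of the variance), and fold changes of the 9 genes that turn without it are given both ways.

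The route was unevenly represented in RNA, with Kmo and Haao high, Kynu lower, and Ido1, Afmid and Ido2 low. Levels of different genes are compared here per length, in TPM, which divides the counts by the annotated exon length and scales each library to a fixed total, as mean ± SD over all 4 libraries. Kmo stood highest, at 173 ± 26.3 TPM (n = 4), above 96.2% of the genes with a count in any library. Haao followed at 68.3 ± 5.20, Ahr at 59.1 ± 5.84 and Tiparp at 45.1 ± 14.5 TPM. The ranges over libraries of Haao and Ahr overlapped, as did those of Ahr and Tiparp, whereas Haao (at least 62.5 TPM) lay above Tiparp (at most 56.2 TPM). Kynu lay lower, at 12.5 ± 3.32 TPM, or 20.4 TPM when the longest transcript set the length. Ido1 (3.47 ± 1.64 TPM) and Afmid (3.14 ± 0.378 TPM) overlapped each other, and their order turned when the longest transcript set the length (2.82 and 3.53 TPM). Ahrr was at 1.37 ± 0.600 TPM and Ido2 lowest, at 0.204 ± 0.142 TPM.

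Among the other enzymes that use tryptophan or kynurenine, Tdo2, the third ring-opening dioxygenase, had 3 counts in the 4 libraries together. Il4i1, a secreted amino acid oxidase that turns tryptophan into indole-3-pyruvate, was abundant at 190 ± 68.2 TPM. Its level per length was 53.3 times that of Ido1 in Ctrl 1, 74.0 times in Ctrl 2, 37.7 times in Il33flx 1 and 72.3 times in Il33flx 2. Kyat1 and Kyat3, transaminases that lead from kynurenine to kynurenic acid, had 5.15 ± 0.689 and 3.77 ± 0.807 TPM. Got2, a mitochondrial aspartate transaminase that can also act on kynurenine, stood at 213 ± 14.6 TPM. Aadat, another such transaminase, had 0 counts in each library, which allows up to 0.0369 to 0.0443 CPM (3 counts, counting error only). Qprt, which uses quinolinic acid for NAD synthesis, was low at 0.926 ± 0.601 TPM.

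**Figure D1:**
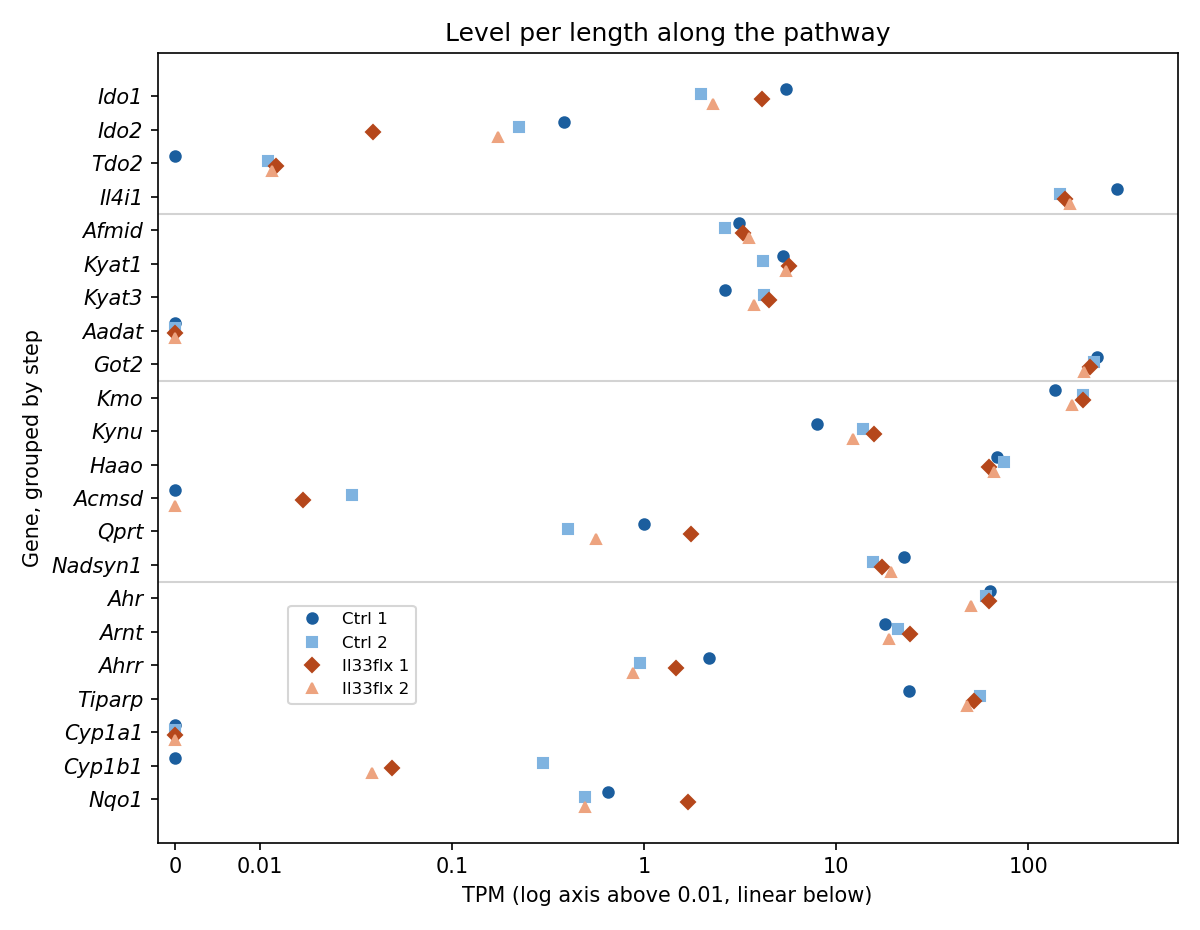
Level per length of genes along the kynurenine route and around Ahr (horizontal axis, TPM, logarithmic above 0.01 and linear below), 1 symbol per library. Kmo (138 to 194 TPM) and Il4i1 (147 to 291 TPM) lie far to the right of Ido1 (1.98 to 5.47 TPM) and Ido2 (0.0389 to 0.383 TPM), and Cyp1a1 and Aadat lie at 0.

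None of the 9 genes was called between genotypes. All 9 passed the filter on low counts, 0 of 9 had an adjusted p below 0.05 (0.995 for each, edgeR), and 0 of 9 had an unadjusted p below 0.05, where 0.00667% and 3.26% of the 14995 genes tested did. DESeq2, which called 0.258% of the genes it adjusted, also called 0 of the 9 and gave 0 of 9 at an unadjusted p below 0.05. In the authors' deposited table, where 0.34% of genes passed, the 9 had adjusted p-values of 0.999997. Under other settings 0 of the 9 were called as well, where 0% to 0.00869% of genes were with other filters, 0.227% without Ctrl 1, 0% without Ctrl 2, 0.183% without Il33flx 1 and 0.00628% without Il33flx 2. Both Il33flx libraries lay below both Ctrl libraries for 3 of the 9 (Ido2, Haao and Ahr; background 14.9%) and above them for 0 (background 15.4%). The median log2 fold change of the 9 was -0.21, against 0.01 over all genes tested. It was 0.05 without Il33flx 2.

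**Figure D2:**
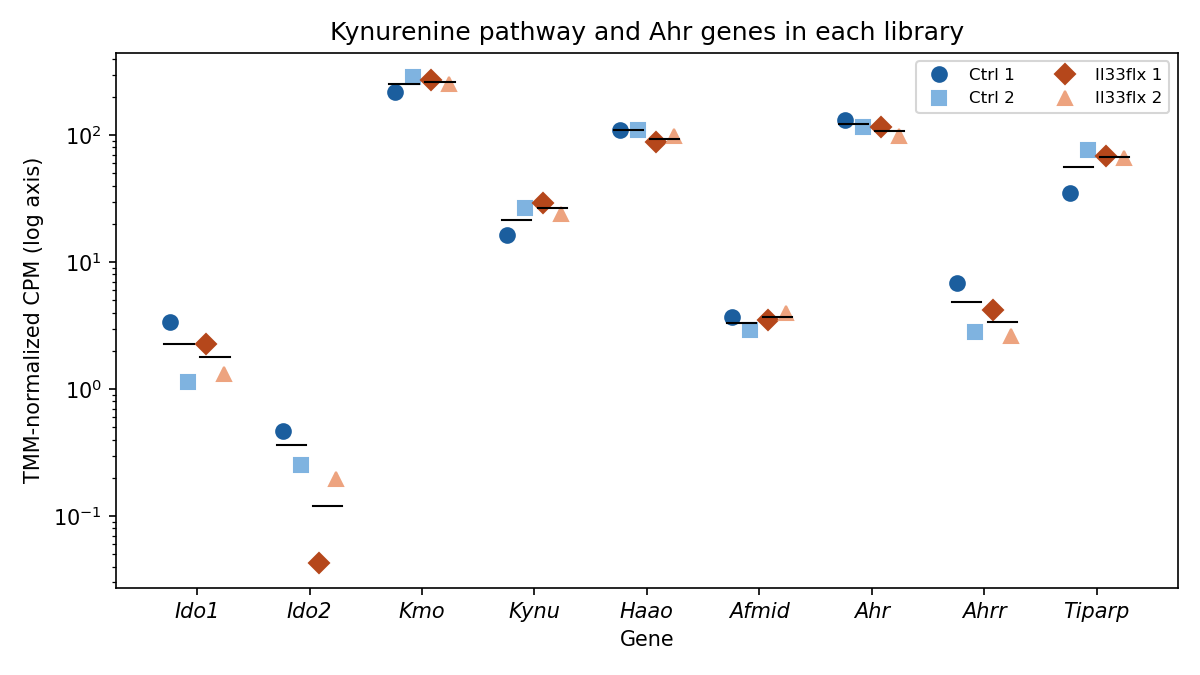
TMM-normalized CPM (vertical logarithmic axis) of each of the 9 genes in the 4 libraries, with black lines at the group means. The groups separate for Ido2, Haao and Ahr alone, and Ctrl 1 is the highest library for Ido1, Ido2, Ahr and Ahrr and the lowest for Kmo, Kynu and Tiparp.

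Ido1 (ENSMUSG00000031551, GRCm38 chromosome 8, 24584136 to 24597009, minus strand) encodes the inducible dioxygenase that limits the route. Its CPM was 3.36 (Ctrl 1), 1.13 (Ctrl 2), 2.27 (Il33flx 1) and 1.31 (Il33flx 2), from 85 to 258 counts. The Il33flx libraries lay between the Ctrl libraries, which differed 2.97-fold from each other. Group means were 2.25 ± 1.58 CPM for Ctrl against 1.79 ± 0.674 CPM for Il33flx (SD of the 2 libraries), a log2 fold change of -0.33 ± 0.59 SE (95% interval -1.75 to 1.09, adjusted p = 0.995, edgeR). The interval spans changes of more than 2-fold in either direction. The sign rested on single libraries, with 0.67 without Ctrl 1 and 0.05 without Il33flx 2.

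Ido2 (ENSMUSG00000031549, chromosome 8, 24531892 to 24576333, minus strand), a paralog of low activity towards tryptophan, lies 7802 bases from Ido1 on the same strand. It had 36 and 19 counts in Ctrl and 3 and 14 in Il33flx, or 0.469, 0.253, 0.0425 and 0.198 CPM. Both Il33flx libraries were lower than both Ctrl libraries. Pooled over libraries, the Il33flx to Ctrl ratio came to 0.351 (exact 95% counting interval 0.191 to 0.614), which leaves out the spread between libraries. With that spread, the log2 fold change was -1.57 ± 0.89 SE (95% interval -3.72 to 0.57, unadjusted p = 0.124, adjusted p = 0.995, edgeR). The Il33flx libraries differed widely from each other, and the fold change was -3 without Il33flx 2, -1.06 without Ctrl 1 and -0.87 without Il33flx 1. A gene with so few reads can pass or fail a filter, and Ido2 dropped out where 1 CPM in 2 libraries was required. IDO enzymes are also made by plasmacytoid DCs, whose 7 marker genes summed to 196, 197, 247 and 169 CPM in Ctrl 1, Ctrl 2, Il33flx 1 and Il33flx 2; their part in Ido1 and Ido2 reads was not tested.

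Afmid (ENSMUSG00000017718, chromosome 11, 117825924 to 117839908, plus strand), the kynurenine formamidase, read 3.73, 2.91, 3.48 and 3.94 CPM in Ctrl 1, Ctrl 2, Il33flx 1 and Il33flx 2. The groups overlapped, with a log2 fold change of 0.16 ± 0.32 SE (95% interval -0.61 to 0.93). In the annotation, 44.25% of its exon bases are shared with the gene model Gm20708 on the same strand, which had 0 counts in each library. Reads in shared bases can be set aside as ambiguous by HTSeq, so the level of Afmid is uncertain, and another 2.35% of its exon bases overlap the thymidine kinase gene Tk1 on the opposite strand.

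Kmo (ENSMUSG00000039783, chromosome 1, 175620381 to 175662116, plus strand) is the monooxygenase of the outer mitochondrial membrane that commits kynurenine to the NAD branch. The 4 values, in CPM, were 219 (Ctrl 1), 285 (Ctrl 2), 273 (Il33flx 1) and 253 (Il33flx 2). Both Il33flx libraries fell between the Ctrl libraries. The log2 fold change was 0.06 ± 0.20 SE, and its 95% interval of -0.41 to 0.53 was the third narrowest of the 9, after those of Haao and Ahr. Without Ctrl 1 the value was -0.11.

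Kynu (ENSMUSG00000026866, chromosome 2, 43555329 to 43682715, plus strand), the kynureninase gene, read 16.4, 26.5, 29.1 and 23.8 CPM in the same order of libraries. Ctrl 1 was low and the other 3 lay closer together, and the log2 fold change of 0.30 ± 0.29 SE (95% interval -0.38 to 0.99) fell to 0.01 without Ctrl 1. Without Ctrl 2 it was 0.68 (unadjusted p = 0.0290, adjusted p = 0.204, edgeR).

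Haao (ENSMUSG00000000673, chromosome 17, 83831156 to 83847963, minus strand), the dioxygenase that acts on 3-hydroxyanthranilic acid, was the steadiest member within Ctrl, at 109.1 and 109.4 CPM. It read 88.0 and 97.9 CPM in Il33flx, both lower than either Ctrl library. The log2 fold change was -0.23 ± 0.17 SE (95% interval -0.65 to 0.18, unadjusted p = 0.223, adjusted p = 0.995, edgeR). The direction held with each library left out, at -0.28 to -0.16. A drop of more than 0.65 on the log2 scale lies outside the interval, whereas no change lies inside it.

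**Figure D3:**
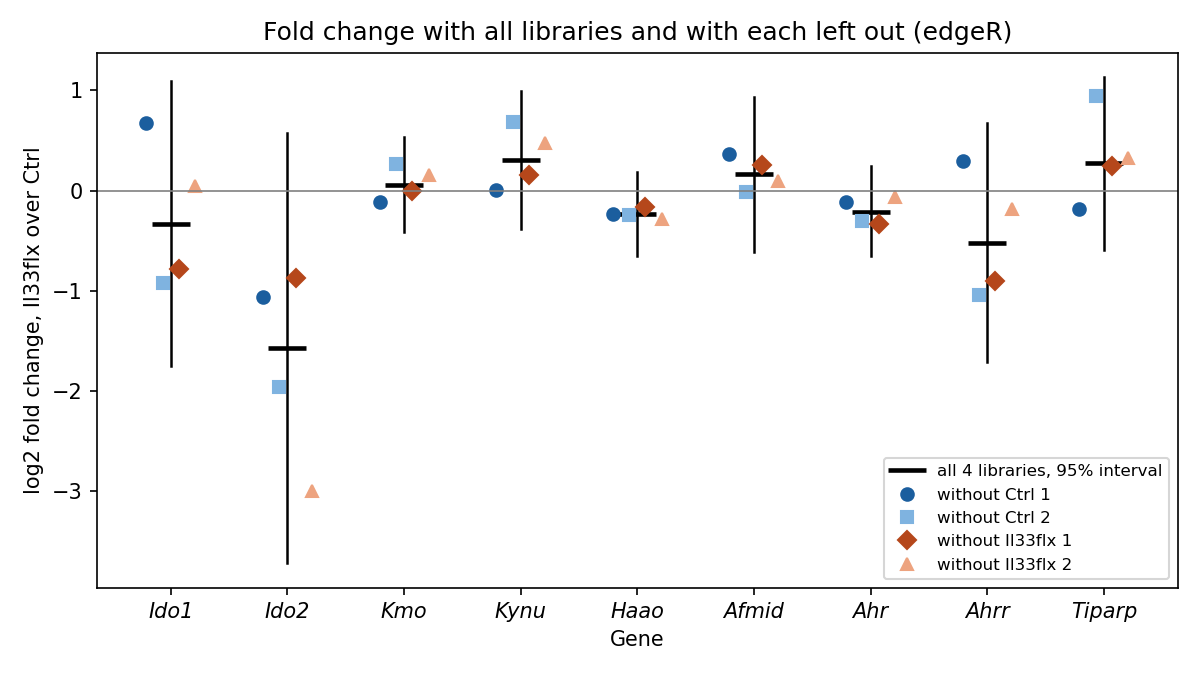
Log2 fold change of Il33flx over Ctrl for each of the 9 genes (edgeR), with black bars for all 4 libraries and lines for their 95% intervals, and coloured symbols for fits without 1 library. All 9 intervals include 0; Ido1, Kmo, Ahrr and Tiparp change sign without Ctrl 1, and Haao, Ahr and Ido2 stay below 0 in each fit.

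Ahr (ENSMUSG00000019256, chromosome 12, 35497974 to 35535038, minus strand), which encodes the receptor, was well expressed in every library. It had 131 and 116 CPM in Ctrl and 115.7 and 98.1 CPM in Il33flx. The groups did not overlap, but only just, since Ctrl 2 and Il33flx 1 were both at 115.74 CPM. The log2 fold change was -0.21 ± 0.19 SE (95% interval -0.65 to 0.24, adjusted p = 0.995, edgeR), and it was -0.06 without Il33flx 2 and -0.11 without Ctrl 1. Of the exon bases, 2.06% overlap a noncoding gene on the opposite strand.

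The feedback genes Ahrr and Tiparp lay at opposite ends in Ctrl 1, the first highest there and the other lowest. Promoters are shown for both, and for the AHR target Cyp1b1 as a listed target with a match, because the motif through which AHR and ARNT bind DNA, GCGTG on either strand (CACGC when read on the other), can be looked for in them. Capitals mark the motif in the 250 bases before the RefSeq start (GRCm38.p6), written 5′ to 3′ on the strand of the gene.
Ahrr, chr13:74292332-74292581, minus strand: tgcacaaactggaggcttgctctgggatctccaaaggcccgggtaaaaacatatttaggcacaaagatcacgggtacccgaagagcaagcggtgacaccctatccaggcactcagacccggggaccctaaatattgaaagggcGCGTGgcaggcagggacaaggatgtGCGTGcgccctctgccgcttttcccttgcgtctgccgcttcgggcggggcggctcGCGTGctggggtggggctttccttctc
Tiparp, chr3:65528197-65528446, plus strand: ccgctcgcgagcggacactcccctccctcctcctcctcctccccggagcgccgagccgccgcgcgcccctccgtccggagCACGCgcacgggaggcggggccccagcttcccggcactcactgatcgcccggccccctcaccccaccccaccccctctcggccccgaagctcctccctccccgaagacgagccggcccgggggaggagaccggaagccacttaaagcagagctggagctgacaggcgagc
Cyp1b1, chr17:79715062-79715311, minus strand: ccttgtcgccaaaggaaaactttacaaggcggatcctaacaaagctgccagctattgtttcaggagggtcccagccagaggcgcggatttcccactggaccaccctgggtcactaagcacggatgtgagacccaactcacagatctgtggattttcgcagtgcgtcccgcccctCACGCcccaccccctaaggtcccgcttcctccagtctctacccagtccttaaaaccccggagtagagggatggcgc

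The Ahrr window held the motif 3 times, beginning 107, 82 and 27 bases before the start, and those of Tiparp and Cyp1b1 held it 1 time each, beginning 170 and 76 bases before it. Over all 32851 RefSeq promoter windows of this length, 28.2% held it at least 1 time, so a match by itself is common. Windows were at hand for 5 of the 9 genes (Kmo, Haao, Afmid, Ahrr and Tiparp). Of the others, Haao held 1 match, and Kmo and Afmid held 0. Of the 7 listed targets with a window, 2 held a match (Cyp1a1 and Cyp1b1) and 5 held 0. A match is a string of letters and not a measured binding site.

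Ahrr (ENSMUSG00000021575, chromosome 13, 74211118 to 74292331, minus strand), which encodes the repressor that competes with AHR for ARNT, ranged from 2.60 CPM (Il33flx 2) through 2.79 (Ctrl 2) and 4.16 (Il33flx 1) to 6.91 CPM (Ctrl 1). Ctrl 1 was highest and the groups overlapped. The log2 fold change was -0.52 ± 0.50 SE (95% interval -1.71 to 0.67, adjusted p = 0.995, edgeR). It was 0.29 without Ctrl 1, and -1.04 without Ctrl 2 (unadjusted p = 0.0435, adjusted p = 0.232, edgeR).

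Tiparp (ENSMUSG00000034640, chromosome 3, 65528410 to 65555518, plus strand), whose product ADP-ribosylates AHR and lowers its activity, read 34.9, 76.4, 68.3 and 66.0 CPM in Ctrl 1, Ctrl 2, Il33flx 1 and Il33flx 2. Here Ctrl 1 was lowest, at 0.457 of the value of Ctrl 2, and the other 3 libraries lay close together. The log2 fold change was 0.27 ± 0.36 SE (95% interval -0.59 to 1.13, adjusted p = 0.995, edgeR), with -0.18 without Ctrl 1. Without Ctrl 2, where Ctrl 1 alone stands for the controls, it was 0.94 (unadjusted p = 0.00261, adjusted p = 0.119, edgeR). A pseudogene on the opposite strand, with 64 to 89 counts, shares 5.12% of the exon bases.

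AHR targets listed beside the 9 genes were at 0 or low counts, apart from Serpinb2. Of the feedback genes, which AHR also induces, Tiparp stood at 45.1 TPM and Ahrr at 1.37 TPM. Cyp1a1 and Cyp1a2, the detoxifying cytochromes most used as reporters of AHR activity, had 0 counts in each library. For Cyp1b1 Ctrl 2 gave 41 counts, Ctrl 1 gave 0, and the Il33flx libraries gave 6 and 5, so that most reads came from 1 library. Nqo1, a quinone reductase also driven by NRF2, had 26, 18, 56 and 17 counts, with Il33flx 1 alone high. Serpinb2, a protease inhibitor gene with many other inducers, had 321 to 534 counts per library (7.18 ± 1.86 TPM) and overlapping groups. Of 9 listed targets, 3 passed the filter and 0 were called (edgeR, DESeq2). Ugt1a6a, a glucuronosyltransferase, had 16 and 9 counts in Ctrl and 31 and 38 in Il33flx (log2 fold change 1.56 ± 0.65 SE with an unadjusted p of 0.0498 and an adjusted p of 0.995 in edgeR). It shares exons with other Ugt1a genes, so its count is uncertain.

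The partners of AHR were present. Arnt stood at 20.5 ± 2.77 TPM over the 4 libraries, the chaperone gene Hsp90ab1 at 1470.3 ± 78.4 TPM, and the co-chaperone gene Ptges3 at 40.9 ± 13 TPM. Arnt2, the neural paralog of Arnt, had 41 and 2 counts in Ctrl and 54 and 2 in Il33flx, high in the libraries numbered 1. All 7 genes of this list passed the filter and 0 were called. Without overlap, 15.4% of all genes tested lay higher and 14.9% lower, and 0 of these 7 did either. Their log2 fold changes ran from -0.60 (Src, a kinase of the receptor complex, unadjusted p = 0.206, adjusted p = 0.995, edgeR) to 0.50 (Arnt2). Both rested on single libraries: Src was 0.08 without Ctrl 1, and Arnt2 was 3.83 without Ctrl 1, -0.44 without Ctrl 2 and -3.24 without Il33flx 1.

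Carriers that bring tryptophan and kynurenine into cells were also measured. Slc7a5 and Slc3a2, the subunits of the large neutral amino acid transporter LAT1, stood at 71.7 ± 6.93 and 207 ± 22.0 TPM. Slc7a5 read 91.7 and 92.6 CPM in Ctrl and 77.5 and 74.1 CPM in Il33flx, lower in both (log2 fold change -0.28 ± 0.17 SE with an unadjusted p of 0.148 and an adjusted p of 0.995 in edgeR). Slc7a8 (LAT2) was also lower without overlap, but only just, with Ctrl 2 at 38.95 and Il33flx 1 at 38.87 CPM. The cystine carrier gene Slc7a11 was higher without overlap. Unadjusted p was 0.254 for Slc7a8 and 0.301 for Slc7a11 (adjusted p = 0.995 for each, edgeR). Without Ctrl 1 the log2 fold change was -0.28 for Slc7a5, -0.10 for Slc7a8 and 0.35 for Slc7a11. Of the 6 carriers, 0 were called (edgeR, DESeq2), and 2 lay lower and 1 higher without overlap, where 14.9% and 15.4% of all genes tested did.

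Genes that induce IDO1 or signal with it were mostly abundant. The receptor chains for interferon gamma, Ifngr1 and Ifngr2, stood at 1027 ± 303 and 149 ± 3.90 TPM, and the transcription factor genes Irf8 and Irf1 at 1780 ± 189 and 203 ± 32.3 TPM. Ifng itself had 6 to 26 counts. Of 17 listed genes, 16 passed the filter and 0 were called (edgeR, DESeq2), and 4 lay lower and 2 higher in Il33flx without overlap, against a background of 14.9% and 15.4%. The kinase gene Jak2 read 68.9, 91.8, 53.7 and 65.7 CPM (log2 fold change -0.43 ± 0.22 SE with an unadjusted p of 0.0993 and an adjusted p of 0.995 in edgeR). Jak2 was at -0.61 without Ctrl 1 and -0.21 without Ctrl 2. Jak2 (chromosome 19, 29251828 to 29313080) lies near the targeted Il33 (chromosome 19, 29925114 to 29960718). The part of this position in the Jak2 values was not tested. Socs3, an adaptor that targets IDO for degradation, read 40.5, 38.3, 34.3 and 29.4 CPM (log2 fold change -0.30 ± 0.20 SE with an unadjusted p of 0.170 and an adjusted p of 0.995 in edgeR).

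For Ido1, Ahrr, Tiparp, Kynu, Kmo and Afmid the Ctrl libraries differed more from each other than the groups did. Ctrl 1 was at an end of the 4 values for 7 of the 9 (77.8%), highest for 4 and lowest for 3, and it was so for 70.2% of all genes tested (34.2% highest, 36% lowest). The share among the 9 is close to that background. On the log2 scale, with a prior count of 2, Ctrl 1 exceeded Ctrl 2 by 1.55 for Ido1 and 1.30 for Ahrr and was lower by 1.13 for Tiparp, where the median absolute difference over all genes was 0.377. Haao, with a difference of 0.00, Ahr (0.18) and Afmid (0.35) differed by less than that median. Il33flx 1 exceeded Il33flx 2 by 0.78 for Ido1 and 0.68 for Ahrr, against a median absolute difference of 0.225.

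Most listed markers of mature DCs were also highest in Ctrl 1. The 11 listed genes summed to 3384 CPM in that library against 2184 in Ctrl 2 and 2252 and 2379 in the Il33flx libraries. Of the 11, 8 were highest in Ctrl 1 and 1 (Il12b) was lowest there, where 34.2% and 36% of all genes tested were. None of the 11 is near 0 apart from Ccl17, at 0.198 to 0.621 CPM. The trait was not particular to this list. Highest in Ctrl 1 were also 6 of 8 T cell and EL4, 6 of 10 macrophage and monocyte and 5 of 8 type 1 DC markers. It was so for 0 of 9 B cell and 0 of 9 neutrophil markers. Il4i1, which mature DCs express, read 400.2, 187, 191 and 212 CPM in Ctrl 1, Ctrl 2, Il33flx 1 and Il33flx 2. The part of these cells in the values of Ido1 and Ahrr was not tested, and in bulk RNA fewer cells of a type and less RNA per cell cannot be told apart. For markers of other cell types, 15.4% of all genes tested lay higher and 14.9% lower without overlap, and calls are those of edgeR. B cell markers summed to 69.1 and 71.9 CPM in Ctrl and 136 and 119 CPM in Il33flx (9 of 9 genes higher without overlap, 0 called). Of these, Pax5 and Cr2 were called with DESeq2 and in the authors' deposited table. Erythroid markers summed to 33.4 and 16.7 against 58.6 and 31.5 CPM (7 of 9 higher without overlap, 0 called), sums that overlap between the groups. Car2 made up most of both Ctrl sums, at 27.6 and 11.3 CPM, and read 25.2 and 17.2 CPM in Il33flx. Car2 and Alas2 were the erythroid genes that overlapped. Car1, an erythroid carbonic anhydrase gene, was called with DESeq2 (adjusted p = 5.34e-08) and in the authors' deposited table (adjusted p = 1.25e-07). T cell and EL4 markers summed to 129.9 and 85.2 against 81.9 and 71.8 CPM (5 of 8 lower without overlap, 0 called). Neutrophil markers summed to 357 and 323 against 624 and 441 CPM (5 of 9 higher without overlap, 0 called), NK cell markers to 8.80 to 14.2 CPM in the 4 libraries, macrophage and monocyte markers to 1317 to 1595 CPM and type 2 DC markers to 536 to 616 CPM. Their part in the values of the 9 genes was not tested.

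**Figure D4:**
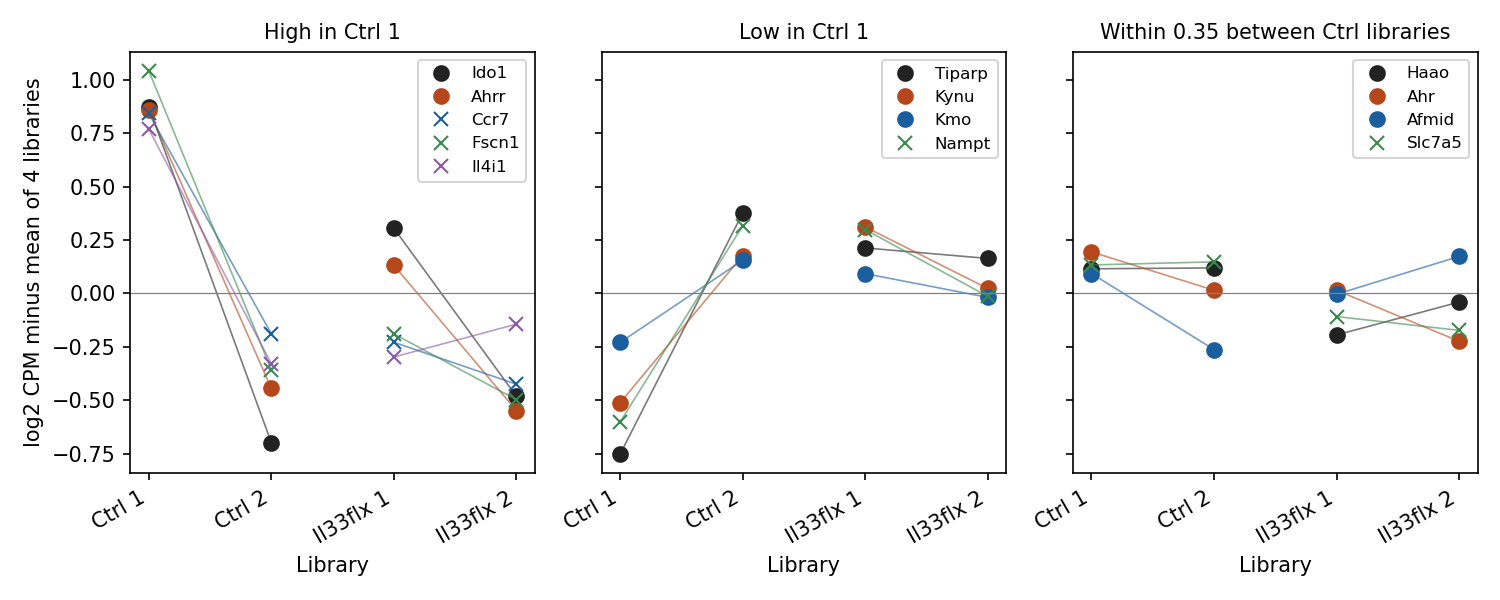
Log2 CPM of each gene minus its mean over the 4 libraries (vertical axis), by library. Circles mark the genes described, all of the 9 but Ido2, which is not drawn. Crosses mark other genes drawn beside them, and lines join libraries of a group. The genes were sorted into panels after their values were seen, as high in Ctrl 1, low in Ctrl 1 or close between the Ctrl libraries. Ido1 and Ahrr peak in Ctrl 1 with Ccr7, Fscn1 and Il4i1, while Tiparp, Kynu and Kmo are lowest there with Nampt. Ccr7 and Fscn1 were picked from 11 mature DC markers, of which 8 were highest in Ctrl 1 and 1 (Il12b) was lowest there. Cd83 and Ccl17 were highest in Il33flx 2.

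The genes nearest to Ido1 and Ahrr in their pattern over the 4 libraries were sought among 7865 named protein-coding genes of at least 10 CPM, by the Euclidean distance of log2 CPM centred on each gene's mean. Nearest to Ido1 were Esam (0.322), Apol7c (0.327), Slc4a8 (0.389) and Eno3 (0.424). Nearest to Ahrr were Apol7c (0.171), Gbp2 (0.219), Slc4a8 (0.224) and Mab21l3 (0.284). Apol7c, an apolipoprotein L gene, and Slc4a8, a bicarbonate transporter gene, were thus on both short lists, and Apol7c had its highest value, 302 CPM, in Ctrl 1 and 129.6 to 191 CPM elsewhere. With 4 libraries, of which 1 stands apart, many genes share such a profile.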

How the data were processed

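RNA libraries, made with the TruSeq mRNA kit per the labels, were compared as 2 Ctrl against 2 Il33flx. The deposited count table holds raw read counts per gene; the submitters' processing notes name STAR, HTSeq, DESeq2, Trimmomatic 0.39 and build GRCm38. Strand setting, annotation release and other versions are not given in the sources used here, so reads of genes that overlap on opposite strands cannot be told apart. The 5 HTSeq summary rows stayed out of library sizes; of all counted reads, 69.9% to 72.2% were in genes, 21.9% to 23.1% aligned at more than 1 place, 3.22% to 4.93% met no feature and 2.62% to 2.74% were ambiguous. In the authors' deposited table, the signal columns are counts divided by 1 size factor per library, the log2 columns are the authors' fold change and its error, the score column is their test statistic, and the p-value columns are theirs; it was used only where named.

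Counts were fitted with edgeR 4.0.16 in R 4.3.3 (filterByExpr, TMM, quasi-likelihood F test, two-sided, no covariate), adjusted by the Benjamini-Hochberg method over the 14995 genes tested and called below 0.05. SE was taken as log2 fold change over the square root of F, and intervals use the same degrees of freedom. With 2 against 2, a permutation test of a single value cannot go below p = 0.333, so none was run. TPM used GENCODE M21 exon unions of GRCm38, which matched 45229 of the 46078 gene rows. Promoter windows are from RefSeq (250 bases before to 50 after the start). Ratios of sparse counts carry exact 95% counting intervals, which cover counting error only. Alternatives were other size factors, DESeq2 1.42.0, limma-voom (limma 3.58.1), other filters, the replicate number as a block, and each library left out. The fit was tested on simulated counts.

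The 9 genes and the lists were chosen with earlier results of these data known. Named genes were all 9; from each pathway list, genes with an unadjusted p under 0.05 and the 2 with the smallest p, or any gene of lists under 8; and, for the 2 members that varied most among those of at least 1 CPM, the 4 genes nearest in pattern. Other list genes (among them Tdo2, Aadat, Kyat1, Kyat3, Qprt, Cyp1a1, Cyp1a2, Cyp1b1, Ifng, Ifngr1, Ifngr2, Irf1, Irf8 and those of NAD and serotonin synthesis) were named for their role after their values had been seen, as were Serpinb2 for its counts, Itgax for the Cre, and Car1, Pax5 and Cr2 for their calls. Car2, Alas2, Wdfy4, Xcr1 and Clec9a were named for their part in marker sums or their direction, also after their values had been seen. Not every gene of the lists is reported by name.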

Additional observations from a re-analysis of the deposited data

How the results depend on the processing

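None of the 9 genes was called under any of the 11 alternatives. Of 98 fold changes of single genes, 92 kept their sign and 6 reversed, all 6 with a library left out. Over those 4 fits the log2 fold change ran from -0.92 to 0.67 for Ido1, -0.11 to 0.26 for Kmo, -1.04 to 0.29 for Ahrr, -0.18 to 0.94 for Tiparp and -0.01 to 0.36 for Afmid, the median of the 9 from -0.24 to 0.05, and the number of genes called from 0 (without Ctrl 2) to 36 (without Ctrl 1). A group left with 1 library was assumed to vary like the other. The median was -0.12 with library size alone and -0.06 with 1 CPM required in 2 libraries, where Ido2 was not tested. Over all genes, 1 was called with edgeR, 49 with DESeq2 and 0 with library size alone, with limma-voom and with no filter; the cause was not tested. With the replicate block 33 (0.22%) were called, and the median of the 9 was -0.18. The block is only a shared number: same-numbered libraries deviated from their group means with r = -0.03 across genes, and no pairing is stated. With the longest transcript as the length, TPM was 20.4 for Kynu, 75.7 for Haao, 3.53 for Afmid and 48.5 for Ahr, which follows from the other lengths. The motif was in 32.4% of whole promoter windows and 28.2% of their upstream bases, which are fewer. Depth limits Ido2 (3 to 36 counts per library) and the targets with under 60 counts per library.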

Other observations

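The end of the route and its side branches had levels that differed by gene and not by call. Nampt, the entry enzyme of NAD salvage from nicotinamide, stood at 62.0 ± 18.6 TPM (SD over 4 libraries), Nadsyn1 at 18.7 ± 3.0 and Naprt, which starts from nicotinic acid, at 17.4 ± 3.19 TPM, whereas Qprt, the link from kynurenine, had 0.926 ± 0.601 TPM. Nampt was lowest in Ctrl 1 (62.6 CPM), as was Tiparp, and stood at 118 in Ctrl 2 and at 117 and 94.2 CPM in the Il33flx libraries. Acmsd, which diverts the product of HAAO away from NAD, had 3 counts in all. The serotonin branch was close to silent in RNA, with 3 counts for Tph1 and 0 for Tph2 over the 4 libraries and 48 for Ddc. Wars, the tryptophan tRNA ligase gene and a known interferon gamma target, stood at 146 ± 6.50 TPM. Of the 18 enzymes of tryptophan and NAD metabolism listed beside the 9 genes, 12 passed the filter, 0 were called (adjusted p of 0.995 to 0.9999, edgeR) and 0 had an unadjusted p below 0.05, and 3 (Got2, Nmnat3 and Wars) were lower without overlap, where the background is 14.9%.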
